A study of Homo sapiens with 6 samples.

Results

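Gained distal H3K27me3 regions are broad peaks found in MDA-MB-231 cells after knockdown of E2F1, away from known promoters. A region was chosen by 2 criteria. Its peak in the shE2F1 library had no overlap, not even of 1 bp, with a peak of the control shRNA library, and its midpoint lay farther than 1 kb from every transcription start site (TSS) of GENCODE release 44 on GRCh38 (hg38). The rule selected 51371 of the 135683 shE2F1 peaks, and of 259640 H3K27me3 peaks in both lists together. In all, 59025 shE2F1 peaks (43.5%) had no control overlap, and 7654 of them lay within 1 kb of a TSS. Among distal shE2F1 peaks the gained share was 42.6% (95% interval 42.3% to 42.9%, n = 120566), and the remaining 69195 are named shared distal regions below. The same rule in the other direction left 37798 lost distal regions, which were 33.3% of the 113342 distal control peaks. Because peak calls in both libraries chose the members, the size of the gain, the fold enrichment and the q-value describe them and carry no test.

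MDA-MB-231 is an established cell line of human triple-negative breast cancer. Chromatin carrying histone H3 trimethylated at lysine 27 was immunoprecipitated from cells transduced for 24 h with lentivirus for a control shRNA or for an shRNA against E2F1, both then selected for 72 h in 2 µg/ml puromycin. E2F1 itself was profiled in untreated cells and in cells kept for 72 h in DMSO or in 1 µM GSK126, an inhibitor of the methyltransferase EZH2, none of which carried an shRNA. Each condition has 1 library, so differences between conditions have no replicate check, and every interval below is an exact 95% interval, binomial (Clopper-Pearson) or, for numbers per Mb, Poisson, that covers counting error only. The level of E2F1 after knockdown was not measured in these files.

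H3K27me3 is written by Polycomb repressive complex 2, whose catalytic subunit is usually EZH2, and it marks silent chromatin. At CpG islands of developmental genes it forms strong peaks, whereas over gene deserts and long silent genes it forms broad, shallow domains whose edges a peak caller places with little certainty. E2F1 is a transcription factor of the cell cycle that binds GC-rich promoters, usually close to TSSs.

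The sequences of a few short members show the kinds of DNA involved. The first set holds the members of 300 bp or less with the highest −log10 q, at most 1 per chromosome. All are hg38 plus strand, written 5′ to 3′. In the following 3, capitals mark CG dinucleotides, of which they hold 18, 23 and 27 in 196, 266 and 276 bp.
chr19:35931654-35931849, upstream of LRFN3: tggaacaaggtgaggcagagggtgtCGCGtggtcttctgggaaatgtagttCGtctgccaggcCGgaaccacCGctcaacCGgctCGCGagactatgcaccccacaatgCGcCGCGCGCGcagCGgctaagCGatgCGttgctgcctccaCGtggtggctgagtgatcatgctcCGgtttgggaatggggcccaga
chr3:141311691-141311956, nearest to ZBTB38: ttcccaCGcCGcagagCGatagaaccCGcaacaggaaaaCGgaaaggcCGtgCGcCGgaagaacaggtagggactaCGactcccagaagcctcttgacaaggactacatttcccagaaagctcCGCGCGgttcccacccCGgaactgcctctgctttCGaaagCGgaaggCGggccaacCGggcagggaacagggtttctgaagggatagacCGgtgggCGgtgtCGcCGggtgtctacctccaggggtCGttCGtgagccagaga
chr7:76166443-76166718, nearest to SRRM3: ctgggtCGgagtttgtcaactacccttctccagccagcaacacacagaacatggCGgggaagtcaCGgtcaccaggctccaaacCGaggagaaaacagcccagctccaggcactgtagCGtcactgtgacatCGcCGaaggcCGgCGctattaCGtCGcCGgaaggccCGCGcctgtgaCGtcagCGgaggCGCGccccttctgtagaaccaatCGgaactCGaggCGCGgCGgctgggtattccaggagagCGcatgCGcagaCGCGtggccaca
The other members of this set, with 13 CG dinucleotides in 202 bp and 10 in 241 bp, hold a short repeat. In these, capitals mark the pentamer GGAAT or its reverse complement ATTCC, the repeat unit of human satellites 2 and 3, which was present 11 times in the first and 7 times in the second.
chr1:125180104-125180305, between genes: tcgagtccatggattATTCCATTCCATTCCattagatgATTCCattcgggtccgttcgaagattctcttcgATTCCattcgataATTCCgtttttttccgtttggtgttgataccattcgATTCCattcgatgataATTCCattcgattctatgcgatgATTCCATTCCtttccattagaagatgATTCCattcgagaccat
chr16:34588091-34588331, between genes: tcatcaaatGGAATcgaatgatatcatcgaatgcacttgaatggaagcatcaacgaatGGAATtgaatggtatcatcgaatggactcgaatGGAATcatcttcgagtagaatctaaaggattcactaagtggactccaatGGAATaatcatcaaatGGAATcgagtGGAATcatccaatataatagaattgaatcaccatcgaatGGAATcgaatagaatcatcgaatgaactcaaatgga

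A second set holds 4 of the 5 members that overlapped an E2F1 peak of untreated cells, shown because they join both readouts of the study. Capitals mark CG dinucleotides, with 15, 25 and 29 of them in 220, 216 and 207 bp.
chr19:47743290-47743509, upstream of NOP53: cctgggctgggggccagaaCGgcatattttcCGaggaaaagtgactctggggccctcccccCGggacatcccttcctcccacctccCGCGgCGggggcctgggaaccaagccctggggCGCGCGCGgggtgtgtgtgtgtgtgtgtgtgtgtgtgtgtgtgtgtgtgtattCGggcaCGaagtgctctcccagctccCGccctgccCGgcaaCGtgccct
chr6:36680257-36680472, in an intron of CDKN1A: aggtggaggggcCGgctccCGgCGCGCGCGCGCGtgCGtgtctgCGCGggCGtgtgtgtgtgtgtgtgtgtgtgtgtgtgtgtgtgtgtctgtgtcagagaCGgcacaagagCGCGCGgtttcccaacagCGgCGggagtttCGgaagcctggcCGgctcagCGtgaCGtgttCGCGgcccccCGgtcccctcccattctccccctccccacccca
chr6:53359332-53359538, upstream of ELOVL5: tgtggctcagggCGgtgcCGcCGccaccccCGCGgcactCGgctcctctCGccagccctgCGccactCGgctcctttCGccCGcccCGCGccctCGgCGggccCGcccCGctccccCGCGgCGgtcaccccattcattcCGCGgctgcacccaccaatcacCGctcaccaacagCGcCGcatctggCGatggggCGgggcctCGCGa
In the last, which holds 34 CG dinucleotides in 230 bp, capitals mark instead a pair of matches to the E2F motif. The motif was searched as TTCCCGC or TTCGCGC, and as TTGCCGC or TTGGCGC, on either strand. Both matches are TTGGCGC on the minus strand, starting at positions 32 and 83 counted from 1 at the left end.
chr12:6891054-6891283, in an intron of LRRC23 and upstream of SPSB2: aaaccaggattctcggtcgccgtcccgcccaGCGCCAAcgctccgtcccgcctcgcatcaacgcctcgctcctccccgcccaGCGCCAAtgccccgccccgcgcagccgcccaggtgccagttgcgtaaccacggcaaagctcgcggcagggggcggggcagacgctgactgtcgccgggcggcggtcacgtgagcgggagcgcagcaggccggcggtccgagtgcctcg

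Gained distal regions were short and weak. Their median width was 538 bp (quartiles 306 and 870 bp), against 1216 bp for shared and 457 bp for lost distal regions. They covered 34.8 Mb in all, whereas the shared distal regions of the same library covered 126.1 Mb and the lost ones 21.3 Mb. The median fold enrichment over background was 2.85 in gained, 3.01 in shared and 3.08 in lost distal regions. The median −log10 q was 1.36, little above the lower limit of 1 that the broad threshold of 0.1 sets, against 1.64 in shared and 1.52 in lost regions. Of the members, 41.6% had a −log10 q below 1.3 and another 49.8% lay between 1.3 and 2. Gained regions were thus somewhat wider than lost ones and much narrower than shared ones, and they had the lowest median fold and −log10 q of the 3 classes.

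**Figure D1:**
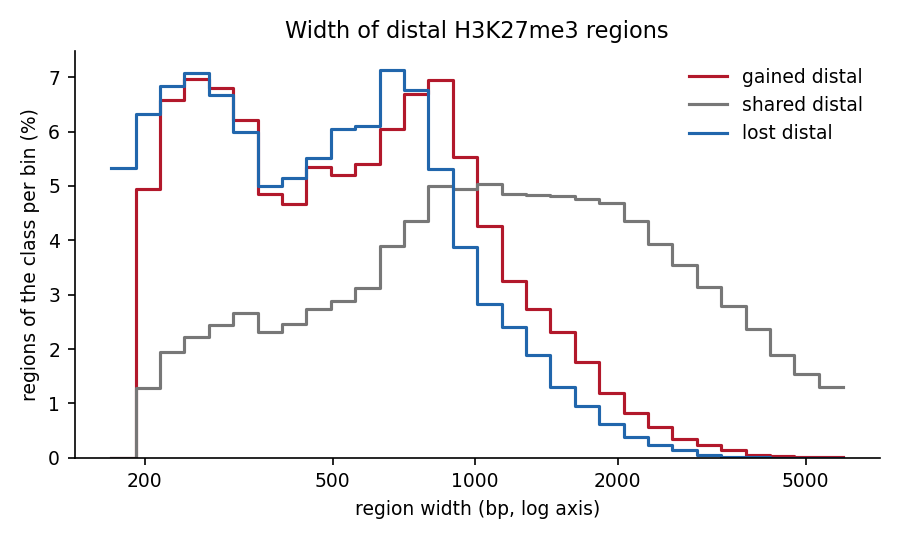
Width of distal H3K27me3 regions in base pairs on a log axis (x) and the percentage of each class in each bin (y), for gained (51371), shared (69195) and lost (37798) regions. Gained and lost regions both rise below 300 bp and again below 1000 bp, shared regions lie to the right, and shared regions wider than the axis are not drawn.

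Width separated gained from shared regions step by step. Of the distal shE2F1 peaks under 300 bp, 70.7% were gained (70.0% to 71.3%), and this share was 61.1% from 300 to 500 bp, 52.4% from 500 to 1000 bp, 29.3% from 1 to 2 kb and 5.77% from 2 kb on. The rule itself favours short peaks, since a wide peak has more room to touch a control peak. The wider a class, the more its gained regions outnumbered its lost ones. The 2 lists did not start at the same width, however. The narrowest gained region had 196 bp and the narrowest lost one 174 bp, and 5.33% of lost regions were narrower than 191.4 bp. The part of this difference in the ratios by width was not tested. The log2 ratio of gained to lost regions was 0.07 under 300 bp, where 12186 gained stood against 11610 lost, and 1.70 from 2 kb on, where 1268 stood against 389. The widest members were still of ordinary strength. The widest of all, 5813 bp on chr1:232612269-232618081 in an intron of SIPA1L2, was enriched 3.03 times at a −log10 q of 1.53, and a control peak began 136 bp away. Another of 5680 bp in an intron of RBFOX3, a neuronal splicing factor, on chr17:79105768-79111447 had a control peak 178 bp away, and one of 5242 bp on chr7:150945966-150951207 in an intron of the cardiac potassium channel gene KCNH2 had one 1071 bp away.

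Few fragments stood behind those short members whose fragment numbers could be solved, which were a small part of all short members. In members under 300 bp the numbers of fragments behind the averaged values could be solved for 934 of 12186 regions (7.66%), and 70.0% of those rested on 5 fragments. In lost regions under 300 bp 71.0% of 927 solved regions rested on 5 fragments. The most frequent background was 1.27 fragments in the shE2F1 and 1.02 in the control shRNA list, so the libraries differ in depth or fragment length. The lists also differed in their smallest widths and distances. The narrowest region had 196 bp in the gained and in the shared class and 174 bp in the lost class. The smallest distance to another peak of the same list was 787 bp for gained and shared regions and 697 bp for lost ones. The part of these differences in the number of gained regions was not tested. The 1 kb limit did not separate different peaks. Gained peaks just outside the rule, with midpoints 801 to 1000 bp from a TSS, had a median fold of 2.85 and −log10 q of 1.39 (560 peaks), and those just inside, at 1001 to 1200 bp, had 2.86 and 1.41 (622 peaks).

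Most gained distal regions lay close to H3K27me3 peaks of control cells. The median distance from the edge of a member to the nearest control peak was 2613 bp (quartiles 1072 and 7767 bp). Of the members, 23.1% had a control peak closer than 1 kb, 66.0% closer than 5 kb (65.6% to 66.4%), 79.3% closer than 10 kb and 94.1% closer than 50 kb. Of the 12739536 tiles of 200 bp that are outside control peaks and over 1 kb from every TSS, 7.01% lay closer than 1 kb, 18.1% closer than 5 kb and 45.4% closer than 50 kb, with a median of 65329 bp, so members were nearer to control peaks than the distal genome at large. Lost regions lay closer still to the other list, with a median of 1641 bp to the nearest shE2F1 peak and 78.8% closer than 5 kb, where 21.3% of tiles outside shE2F1 peaks lay. The shE2F1 list is the longer one and covers 178.9 Mb against 143.2 Mb in control, so the distances in the 2 directions do not have the same reference. The nearest shE2F1 peak was closer than the nearest control peak for 51.7% of members (51.3% to 52.2%), with a median distance of 2398 bp.

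**Figure D2:**
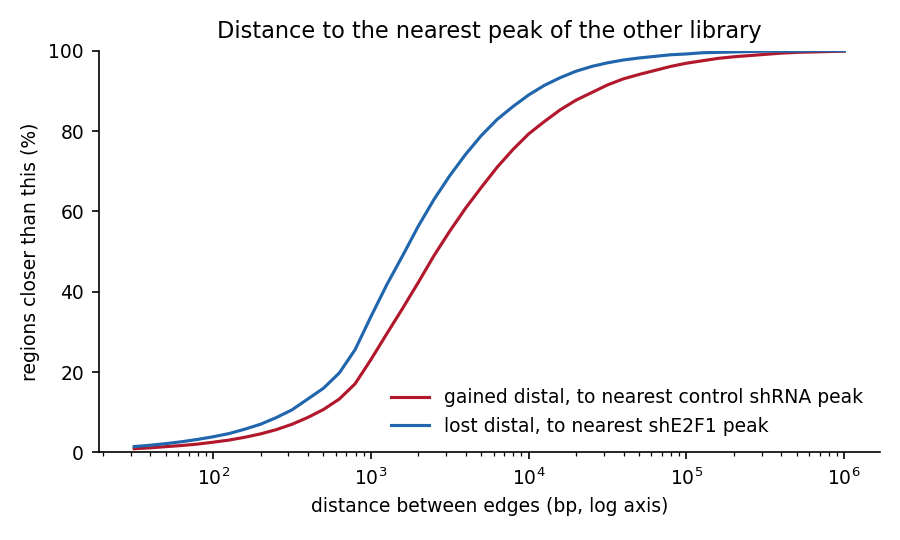
Edge-to-edge distance to the nearest peak of the other library in base pairs on a log axis (x) and the percentage of regions closer than that (y). At 5 kb the curve of gained distal regions stands at 66.0% and that of lost distal regions at 78.8%.

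A minority stood far from any control peak. The member farthest away, chr21:6374486-6375224, lay 7840746 bp from the nearest one, and 4 of the 6 farthest were on the same stretch of chromosome 21. The others were in introns of genes on chromosome 2. One of 826 bp at chr2:142129208-142130033 in LRP1B, which encodes a lipoprotein receptor, was 4291582 bp away, and one of 360 bp at chr2:143124685-143125044 in ARHGAP15 was 3874399 bp away. Their −log10 q values were 1.13 and 1.85, so distance from control peaks did not go with strength in these members.

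Members also followed each other without a control peak between them. In order along each chromosome they formed 32127 runs uninterrupted by control peaks, of which 19985 held a single member (38.9% of all members). Runs of 5 or more numbered 1316 and held 14.1% of members, and 117 runs held 10 or more. The following runs were named after their counts were seen. The run with the most members, chr10:130471492-131215761, held 25 over 744.3 kb around TCERG1L, 2.58 Mb from the chromosome end. A run of 21 over 318.0 kb on chr14:95890404-96208364 spanned TUNAR, C14orf132 and the bradykinin receptor gene BDKRB2, and another of 21 on chr22:47423492-47777879 held no protein-coding gene. In RBFOX1, a neuronal splicing regulator, a run of 19 lay at chr16:5497696-6280739 and a further 19 in chr16:6694649-8486288. In each of these runs the members covered a small fraction of the span, 15.1 kb in the run of 25.

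Position relative to genes was nearly the same in gained, shared and lost regions. The midpoint lay in a gene of any type for 54.6% of gained distal regions (54.1% to 55.0%), for 55.2% of shared and for 54.2% of lost ones. Of all 200-bp tiles of the genome that are distal by the same rule, 58.9% lay in a gene. For protein-coding genes the shares were 37.3% in gained, 39.3% in shared, 37.1% in lost regions and 43.1% in the tiles, so H3K27me3 regions of each class were less often in genes than the distal genome. The midpoint was in an intron only for 51.3% of members, in an exon for 3.22% and in coding sequence for 0.938%, and 45.4% lay between genes.

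Gained regions lay farther from TSSs than shared ones. The median distance to a TSS of any gene was 16224 bp in gained, 13716 bp in shared and 15293 bp in lost distal regions, and to a protein-coding TSS 47486, 34250 and 40316 bp. The gained share of distal shE2F1 peaks was 39.1% (38.0% to 40.2%) at 1 to 2 kb from a TSS, 43.3% at 20 to 50 kb, 48.6% at 50 to 100 kb and 57.7% (56.3% to 59.0%) at 100 to 500 kb. Only 37 peaks lay farther, of which 25 were gained. The log2 ratio of gained to lost regions was 0.44 at 1 to 2 kb, 0.35 at 10 to 20 kb and 0.72 at 100 to 500 kb. Among regions with a −log10 q of at least 2 that ratio was below 0 at every distance from a TSS, with intervals that included 0 from 100 kb on.

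The base composition of members was that of H3K27me3 regions in general. GC content over the 200 bp around the midpoint was 46.0% ± 8.12 (SD over 51371 regions of 1 library), against 46.2% ± 7.68 in shared and 45.9% ± 7.68 in lost regions and 40.4% ± 8.95 in distal tiles of the genome. A midpoint was named CpG-dense when its 200 bp had a GC content of at least 50% and an observed to expected CpG ratio of at least 0.6. This held for 2.34% of gained regions (2.21% to 2.47%), 1.76% of shared (1.66% to 1.86%), 1.96% of lost (1.82% to 2.10%) and 1.19% of tiles. Few members are therefore CpG-island-like, and gained regions held such DNA more often than shared ones. The E2F motif, in the letters given above, was present in these 200 bp in 1.26% of members, 1.39% of shared and 1.21% of lost regions and 0.845% of tiles. Motifs elsewhere in wider regions were not counted.

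The share of CpG-dense members rose with strength. It was 2.01% at a −log10 q of 1 to 1.3, 3.19% at 2 to 3, 10.8% (7.64% to 14.7%) at 3 to 5 and 50.0% (34.2% to 65.8%) from 5 on. In shared distal regions the same classes held 1.55%, 2.17%, 4.71% and 17.6% (9.47% to 28.8%). Lost regions held 5.17% at 3 to 5 and 0 of 9 from 5 on, an interval that reaches 33.6%. The mean GC content of members rose alongside, from 45.2% in the weakest to 56.7% in the strongest class. The strong members and the bulk thus differ in sequence.

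**Figure D3:**
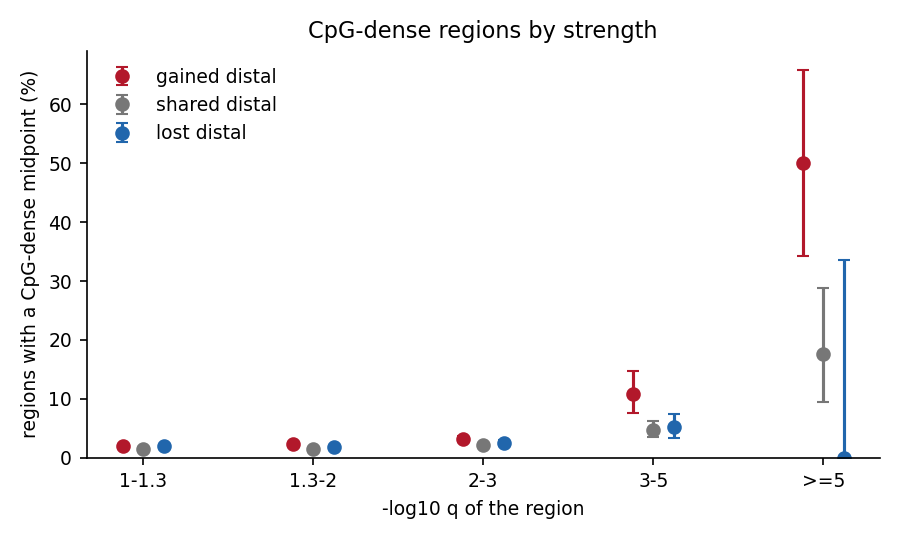
Percentage of distal regions with a CpG-dense midpoint (y) by −log10 q of the region (x), with exact 95% binomial intervals, for gained, shared and lost regions. The points lie close together below 3, and from 5 on the gained regions stand at 50.0% (n = 42), the shared at 17.6% (n = 68) and the lost at 0 of 9.

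Only 42 members had a −log10 q of at least 5, whereas 595 gained peaks at promoters did. Of the 42, 21 were CpG-dense, 11 lay within 5 kb of a TSS, 16 in a gene and 1 in an exon, and 12 overlapped an E2F1 peak of some library. They were short, with a median width of 356 bp, and 26 of them had no control peak within 10 kb. They lay on 17 chromosomes, 5 of them on chromosome 19. Of the 48753 members on chromosomes other than 8, 302 (0.619%) had a RefSeq gene start (GRCh38.p14) within 1 kb, a low share that the distance from GENCODE starts in the rule largely fixes.

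The 6 members with the highest −log10 q were of several kinds. The highest of all, 41.2, belonged to the satellite-like region on chr1:125180104-125180305 printed above, whose fold of 1.68 was at the same time the lowest of all members. The second, 26.9 with a fold of 8.95, was the CG-rich region 3606 bp upstream of LRFN3, a synaptic adhesion gene, and it overlapped E2F1 peaks of both DMSO and GSK126 cells. The third, 19.8 with the highest fold of all members, 9.07, lay at chr19:3990290-3990793, 5079 bp upstream of EEF2, which encodes a translation elongation factor. It was not CpG-dense and overlapped no E2F1 peak. The next pair had −log10 q values of 19.7 at chr1:46062587-46062993 in an intron of PIK3R3, a regulatory subunit of PI3-kinase, and 17.0 at chr7:149580377-149581325 in an intron of the lncRNA ZNF767P. The last, 15.9 at chr19:45927706-45928121, lay 13136 bp upstream of the germ-cell gene NANOS2, was CpG-dense, held an E2F motif and overlapped E2F1 peaks of DMSO and GSK126 cells.

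Satellite-like DNA was rare among members and more frequent than in the other classes. Windows of 200 bp with at least 5 copies of the pentamer GGAAT or ATTCC, searched after the sequences above were seen, made up 88 members (0.171%, 0.137% to 0.211%), 27 shared regions (0.039%) and 13 lost regions (0.0344%), against 0.0961% of tiles. Of the 88, 28 lay on chromosome 17, 18 on chromosome 16 and 13 on chromosome 1, and 19 had a −log10 q of at least 2. These repeats occur in many near-identical copies, so reads from one copy can be placed on another, and whether that differs between the libraries was not tested.

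E2F1 peaks covered few members, and the number differed between the E2F1 libraries. The sizes of the E2F1 lists and the share of distal tiles under E2F1 peaks are not given here. The numbers below therefore compare classes within a list, and a difference between lists is not a trait of the members. Peaks of untreated cells overlapped 5 gained regions (0.00973%), 3 shared and 0 of 37798 lost ones, an interval that reaches 0.00976%. Peaks of DMSO cells overlapped 793 gained regions (1.54%, 1.44% to 1.65%), 0.934% of shared (0.863% to 1.01%) and 0.717% of lost ones (0.634% to 0.807%). Peaks of GSK126 cells overlapped 378 gained regions (0.736%, 0.664% to 0.814%), 0.637% of shared (0.579% to 0.699%) and 0.257% of lost ones (0.208% to 0.313%). The gained class had the highest share in each list, and its intervals lay apart from those of both other classes for DMSO and from lost regions for GSK126. Because shared regions are wider, the numbers were also set against the sequence covered. A region counted once however many E2F1 peaks it held, so this measure in turn favours narrow regions. It widened the contrast with shared regions and narrowed that with lost ones, and how much of this the measure itself brings was not tested. There were 22.8 overlapped regions per Mb covered in gained, 5.12 in shared and 12.7 in lost regions for DMSO, and 10.9, 3.50 and 4.55 for GSK126. The GC content of the DNA and the depth of the H3K27me3 libraries move with these shares, and their part was not tested.

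Members under E2F1 peaks of both the DMSO and the GSK126 library were GC-rich, and those under DMSO peaks alone were not. Both GC content and motif were read in the 200 bp around the midpoint of the H3K27me3 region, which need not include the E2F1 peak. The 139 regions overlapped in DMSO and in GSK126 had a mean GC content of 61.2%, and 20.9% of them held the E2F motif there. The 654 overlapped in DMSO but not in GSK126 had a mean GC content of 46.4% and the motif in 1.68%, close to the 46.0% and 1.26% of all members. In all, 1032 members overlapped an E2F1 peak of at least 1 library, so the large majority had none.

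All 5 members with an untreated E2F1 peak were CpG-dense, and all 5 also overlapped a DMSO and a GSK126 peak. One of 216 bp lay in an intron of CDKN1A, the p21 inhibitor of cyclin-dependent kinases, 1594 bp downstream of its nearest TSS. Its H3K27me3 fold was 2.60 with a −log10 q of 2.0, and the E2F1 fold there was 12.1 in untreated, 15.2 in DMSO and 26.1 in GSK126 cells. The region in LRRC23, 1811 bp upstream of SPSB2, had E2F1 folds of 13.1, 34.1 and 70.5 in the same order. At ELOVL5, a fatty acid elongase, they were 8.48, 9.86 and 15.3. At chr3:196969812-196970403, 1048 bp upstream of PIGZ, they were 5.55, 8.22 and 13.3. At NOP53, a ribosome biogenesis factor, they were 6.40, 3.91 and 5.88, and this member had the highest −log10 q of the 5, 3.06. The E2F1 fold was highest in GSK126 in 4 of them and highest in untreated cells at NOP53, from 1 library each.

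Along chromosomes, the surplus of gained over lost regions was largest near the ends. This division was made after the data were seen. Within 2 Mb of a chromosome end 1922 gained stood against 1027 lost regions, a log2 ratio of 0.90 (0.79 to 1.01), and from 2 to 5 Mb 3475 stood against 1843, a log2 ratio of 0.91 (0.83 to 1.00). The ratio then fell, to 0.65 at 5 to 10 Mb, 0.46 at 10 to 20 Mb, 0.42 at 20 to 40 Mb and 0.30 (0.27 to 0.33) from 40 Mb on. Over all distal regions it was 0.44 (0.42 to 0.46). Counting only regions that reached a −log10 q of 2, the overall log2 ratio was −0.41 (−0.46 to −0.35), from 4408 gained against 5840 lost, so that lost outnumbered gained regions at this strength. From a −log10 q of 5 on it turned again, to 2.22 (1.16 to 3.45) from 42 gained against 9 lost. Near the ends gained regions stayed in excess. From a −log10 q of 2 on, the ratio was 0.52 (0.18 to 0.86) within 2 Mb, 0.39 (0.15 to 0.64) at 2 to 5 Mb and −0.71 from 40 Mb on.

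**Figure D4:**
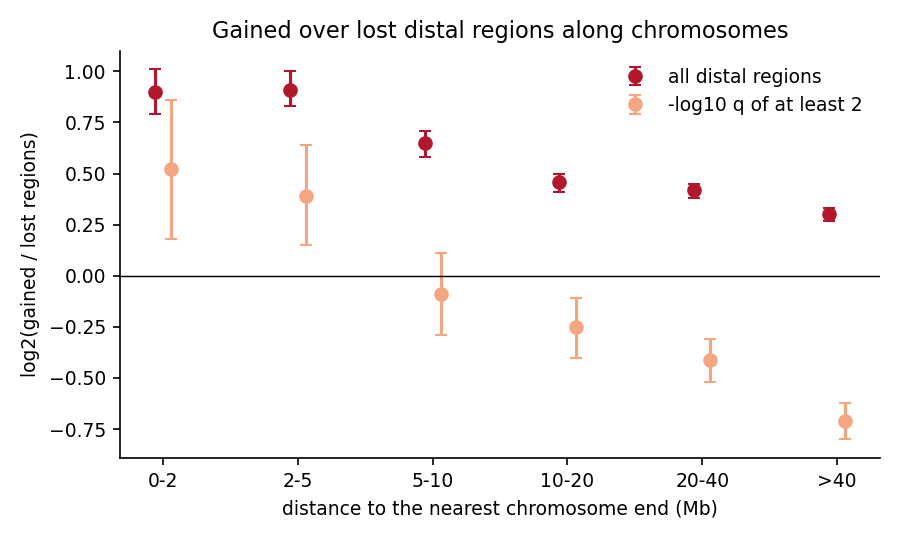
Log2 ratio of the number of gained to lost distal regions (y) by distance to the nearest chromosome end in Mb (x), for all distal regions and for those with a −log10 q of at least 2, with 95% intervals from the exact binomial share. All distal regions fall from 0.90 to 0.30, and the stronger ones cross 0 and end at −0.71.

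GC content rises towards chromosome ends and moved with this ratio. The mean GC content of gained regions was 50.4% within 2 Mb of an end and 45.0% from 40 Mb on. In windows with a GC content of at least 60% the log2 ratio of gained to lost regions was 1.13 (1.01 to 1.24), against 0.31 to 0.52 in the classes below. That class was also the one whose ratio stayed above 0 among regions reaching a −log10 q of 2, at 1.28 (0.92 to 1.64), from 223 gained against 92 lost regions. Within each of the 7 GC classes the ratio was higher less than 5 Mb from an end than 10 Mb or more from both ends, and in 5 of them the intervals were apart. From 45% to 50% GC it was 0.78 (0.64 to 0.92) near the ends and 0.25 (0.21 to 0.29) inside, and from 60% on it was 1.55 (1.35 to 1.76) and 0.87 (0.72 to 1.02). Below 40% GC the intervals overlapped, with 0.61 (0.39 to 0.83) and 0.50 (0.45 to 0.56) from 35% to 40%.

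Every chromosome from 1 to 22 and X held members, and on every one of them gained outnumbered lost regions. Per Mb of sequence the number of gained regions ran from 12.4 on chromosome 21 and 14.0 on chromosome 13 to 22.7 on chromosome 20 and 23.6 on chromosome 16. The gained share of distal shE2F1 peaks was lowest on chromosome 20 (30.9%), which had the most shared regions at 50.7 per Mb, and highest on the X chromosome (58.1%, 56.6% to 59.5%), which had the fewest at 11.6 per Mb. The X chromosome was not rich in gained regions, at 16.1 per Mb. The log2 ratio of gained to lost regions was highest on chromosomes 22 (0.92), 19 (0.85) and 16 (0.79) and lowest on chromosome 6 (0.16, 0.07 to 0.24). Among regions that reached a −log10 q of 2 it was above 0 only on chromosome 19, with 124 gained against 83 lost, and chromosome 22, with 66 against 49. These are also the chromosomes whose gained regions had the highest mean GC content, 49.6% and 50.1%.

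In windows of 1 Mb gained and lost regions followed the same map. Of 2697 windows with any distal H3K27me3 region, 75 held no gained one, and the median was 15 (quartiles 6 and 28). Spearman's rho over these windows was 0.86 between gained and lost and 0.78 between gained and shared counts, as a description of windows that share 2 libraries, mappability and gene content. The 10 windows with the largest surplus of gained over lost regions, named after their counts were seen, all lay less than 10 Mb from a chromosome end. At chr5:2000001-3000000, which holds the developmental transcription factor gene IRX2, 80 gained stood against 43 shared and 10 lost regions. At chr18:78000001-79000000, around SALL3, 71 gained stood against 9 shared and 14 lost, and at chr2:2000001-3000000, in MYT1L, a neuronal transcription factor gene, 93 gained against 84 shared and 31 lost. The largest deficit was at chr5:175000001-176000000, with 30 gained, 106 shared and 56 lost regions. At chr6:27000001-28000000, which holds replication-dependent histone genes, 26 gained stood against 66 shared and 50 lost.

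Members lay in a minority of protein-coding genes, and these were long. Of 19962 protein-coding genes, 3926 (19.7%) held the midpoint of a member and 510 held 10 or more. Genes with a member had a median length of 68.3 kb and those without one of 21.6 kb, so a count mostly follows length. Over the distal sequence of all protein-coding genes there were 16.3 gained, 23.1 shared and 11.9 lost regions per Mb. NRXN3, a presynaptic neurexin of 1698 kb on chr14:78170373-79868291, held 106 gained, 52 shared and 53 lost regions. CDH13, a cadherin without a cytoplasmic tail, on chr16:82626965-83800640 held 103, 90 and 41. NTM, the neuronal adhesion molecule neurotrimin, on chr11:131370478-132336822 held 71, 20 and 22.

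The other 7 genes with the most members held 64 to 85 each. DAB1, an adaptor of reelin signalling, held 85 gained, 75 shared and 44 lost regions. LRMDA held 77, 58 and 45, and the acid-sensing channel gene ASIC2 held 75, 48 and 38. In PDE4D, a cAMP phosphodiesterase, the numbers were close, at 70, 65 and 63. The transcription factor gene ZFHX3 (68, 83 and 47), the synaptic scaffold gene MAGI2 (65, 80 and 53) and the delta-catenin gene CTNND2 (64, 99 and 24) held more shared than gained regions. Since these genes were picked for their gained regions, more gained than lost ones in them is no finding. With a −log10 q of at least 2 the order was mixed, with 8 gained against 9 lost in NRXN3, 6 against 12 in MAGI2 and 9 against 4 in CTNND2.

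**Figure D5:**
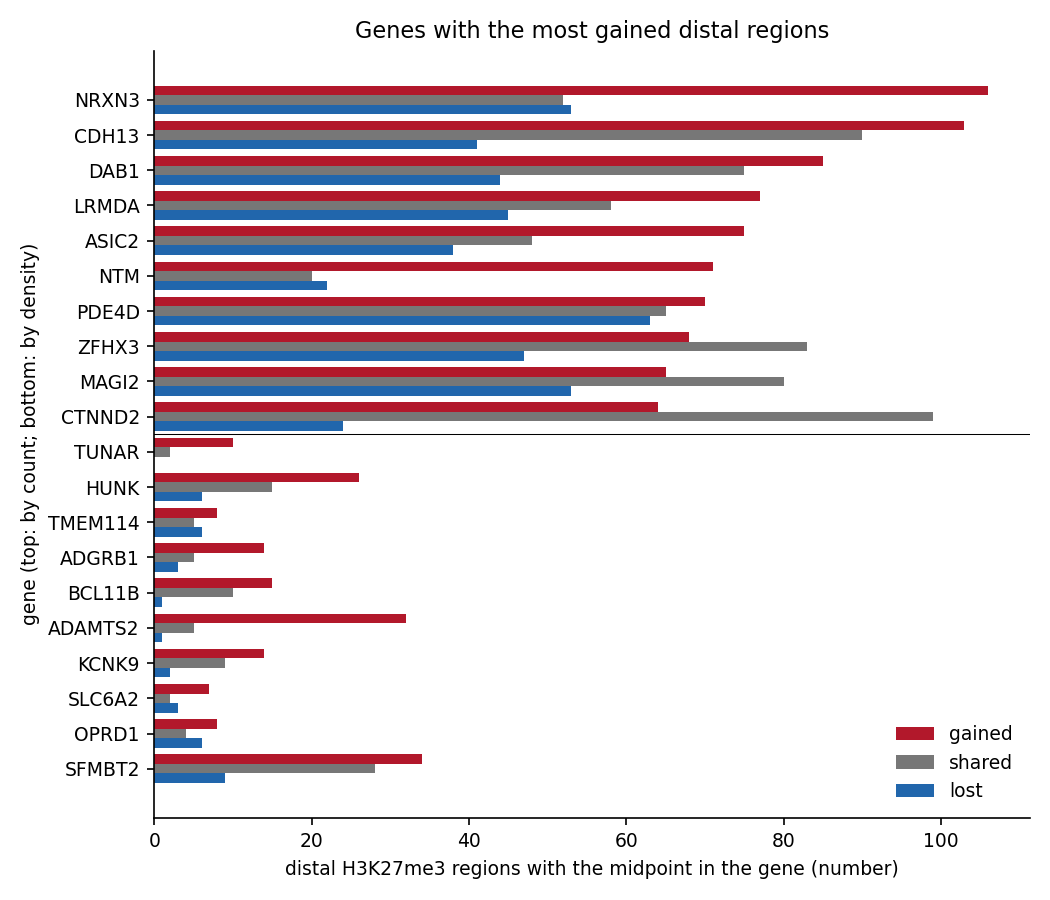
Number of gained, shared and lost distal H3K27me3 regions with the midpoint in the gene (x) for 20 protein-coding genes (y): above the line the 10 with the most gained regions, below it the 10 of at least 50 kb with the most per 100 kb. NRXN3 leads the first set with 106 gained regions, and in TUNAR and ADAMTS2 nearly all regions of the 2 libraries are gained or shared.

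Per length, shorter genes led, and since these too were picked for their gained regions, more gained than lost ones in them is no finding. Among the 6776 genes of at least 50 kb the density of members was highest in TUNAR, a neural gene of 59.1 kb on chr14:95866587-95925663, with 16.9 per 100 kb from 10 gained, 2 shared and 0 lost regions. HUNK, a kinase gene on chr21:31873020-32044633, followed with 15.2 per 100 kb (26, 15 and 6). ADAMTS2, which encodes a procollagen protease, on chr5:179110853-179345461 held 32 gained, 5 shared and 1 lost region, and BCL11B, a transcription factor of T cells and neurons, held 15, 10 and 1. SFMBT2, itself a Polycomb group gene, held 34, 28 and 9, of which 6 gained and 0 lost regions had a −log10 q of at least 2. The channel gene KCNK9 held 14, 9 and 2 and the adhesion receptor gene ADGRB1 14, 5 and 3. TMEM114 (8, 5 and 6), OPRD1, the delta opioid receptor (8, 4 and 6), and SLC6A2, the noradrenaline transporter (7, 2 and 3), rested on few regions. The distance of these 10 genes to the nearest chromosome end ran from 2.19 Mb in ADAMTS2 to 34.6 Mb in SLC6A2. It was not set against that of all genes of at least 50 kb.

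Lists of genes by function showed where members were dense and where they were not. In 36 neuronal adhesion and synapse genes, 31 held a member, with 663 gained, 542 shared and 375 lost regions, or 15.4, 12.6 and 8.74 per distal Mb. TENM2, a teneurin, held 63, 186 and 46. In 20 long genes of common fragile sites, 16 held a member, with 14.9 gained, 11.2 shared and 7.83 lost regions per Mb. Among them DLG2, a synaptic scaffold gene, held 64, 48 and 36, the nuclear receptor gene RORA 56, 88 and 40, and ESRRG 51, 23 and 32. In both lists gained regions per Mb were close to the 16.3 of all protein-coding genes only with the leading gene included. Without NRXN3 the neuronal list held 13.5 gained regions per Mb (12.4 to 14.7). Without DLG2 the fragile-site list held 13.6 (12.2 to 15.1), and both intervals lie below 16.3. Shared and lost regions were also fewer per Mb than the 23.1 and 11.9 of all protein-coding genes.

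Developmental transcription factor genes held more gained, shared and lost regions per Mb than protein-coding genes in general, the gained ones in part through PAX3. The lost value rests on 29 regions, and no interval was taken for shared or lost ones. Of 78 developmental transcription factor genes 20 held a member, with 27.6 gained regions per distal Mb (20.2 to 36.8, exact Poisson interval), 53.9 shared and 17.4 lost. All protein-coding genes held 16.3, 23.1 and 11.9 in the same order. Without PAX3, which held 10 gained, 2 shared and 4 lost regions, the gained density was 22.8 (16.0 to 31.6), an interval that includes the 16.3 of all genes. The shared and lost densities were then 55.7 and 15.8. PAX5 held 4, 32 and 7, and GATA4 held 4 of each. Of 39 HOX genes 7 held a member, from 7 gained, 9 shared and 3 lost regions in 0.198 Mb of distal sequence. That is 35.3 gained regions per Mb, with an interval of 14.2 to 72.7 that also includes 16.3. Each of the 7 genes held 1 gained region, and because HOX genes overlap, the 7 counts stand for 6 distinct regions. HOXB13, HOXB3, HOXB6 and HOXB7 are among the 7 and held no shared or lost region. The 9 shared and 3 lost regions thus lay in other HOX genes. Luminal breast identity genes, many of which are silent in triple-negative lines, held 28.6 gained (21.1 to 37.9), 39.3 shared and 30.4 lost regions per Mb. The oestrogen receptor gene ESR1 carried this density, with 26 gained, 10 shared and 22 lost regions, and without it the list held 17.9 gained regions per Mb (11.2 to 27.1). Its target GREB1 held 6, 19 and 12, and the progesterone receptor gene PGR 6, 9 and 5.

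Other lists held few members. In 30 epithelial-mesenchymal transition genes there were 20 gained, 31 shared and 23 lost regions, or 10.4 gained per Mb (6.35 to 16.1). Of these MMP2, a matrix protease gene, held 11, 5 and 7, and without it there were 4.93 gained per Mb (2.25 to 9.36). PRRX1, a mesenchymal transcription factor gene, held 2, 10 and 1, and OVOL2, an epithelial one, 2, 4 and 4. Of 30 usual E2F target genes only POLA1, a DNA polymerase subunit, held a member, and no shared or lost distal region lay in any of them. That is 1.05 gained regions per Mb (0.0265 to 5.83), against 16.3 over all protein-coding genes. The 31 genes of a Polycomb group list, which does not include SFMBT2, were low too, with 7 gained, 5 shared and 9 lost regions, or 3.84 gained per Mb (1.55 to 7.92). Of those 7, 6 lay in AEBP2, without which there were 0.656 per Mb (0.0166 to 3.65), and 1 in EED, and both genes encode parts of Polycomb repressive complex 2.

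Assigning each member to the protein-coding gene with the nearest TSS spread them over 8284 genes, with a median of 3 and a maximum of 113 members per gene. CDH13 had 113, NTM 104, ADARB2 and NRXN3 97 each, UQCRFS1 93, TENM2 88, CTNND2 87 and GFRA2 86. ADARB2 encodes a brain RNA-editing enzyme without known activity and GFRA2 a receptor for neurturin. UQCRFS1, a subunit of respiratory complex III, is a small gene beside a gene-poor stretch, and the members assigned to it need not concern it.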

How the data were processed

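H3K27me3 and E2F1 ChIP-seq peak lists of MDA-MB-231 cells were analysed, 1 library per group and called per library. The untreated input was not used here. Per the study's methods and the submitters' processing notes, the authors checked reads with FastQC 0.11.5, trimmed them with cutadapt 4.5, filtered with Picard and SAMtools, aligned to GRCh38 with Bowtie2 2.5.2 and called peaks with MACS2 2.2.9.1, broad at a cutoff of 0.1 for H3K27me3 and narrow for E2F1. The labels describe sonication, whereas the methods give micrococcal nuclease for histone marks. The deposited lists hold for each peak a score, which was not used, the fold (a ratio of signal to background, averaged over a broad peak) and −log10 p and −log10 q. The summit offset deposited for E2F1 peaks was not used. Totals of reads are not in these lists, so depth was read only from the solved background of short peaks.

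Overlap meant 1 bp, and distal meant a midpoint over 1 kb from each of the 218307 distinct GENCODE 44 TSSs on chromosomes 1 to 22 and X. GC, CpG and motifs were read in 200 bp around the midpoint, in hg38. Gene density was taken over the distal sequence of a gene. RefSeq gene starts served only in an added check for members within 1 kb of one, outside chromosome 8. With 1 library per group no p-value is given. Genes named were the 10 with the most members and the 10 of at least 50 kb with the highest density. Of each list up to 3 leading genes were named, and 4 of the HOX list. Genes tied with these were not all named, among them TBX15 (4 gained, 0 shared and 2 lost regions) and TWIST2 (2, 2 and 5). Regions named were the 6 highest in −log10 q, the 6 widest, the 6 farthest from control peaks (3 of the widest and 3 of the farthest are printed) and those on untreated E2F1 peaks. The 5 sequences of the first set and 4 of the second followed the same rule. Members, lists and rules were chosen with earlier results of these data known. The alternatives were a −log10 q of at least 2 or 5, a TSS limit of 5 kb, protein-coding TSSs, no peak of the other list within 1 kb, coverage under 50%, and a width of at least 500 bp. Divisions by chromosome end, RefSeq starts, GC class and satellite pentamer, the tiles behind distances and the lists without their leading gene were added after seeing the data. The interval code was tested on simulated data. Python 3.11.15, numpy 2.4.6, pandas 2.3.3, scipy 1.17.1 and matplotlib 3.10.9 were used.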

Additional observations from a re-analysis of the deposited data

How the results depend on the processing

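The excess of gained over lost distal regions depended on the threshold. Its log2 ratio of 0.44 turned to −0.41 among regions reaching a −log10 q of 2 and was 2.22 (1.16 to 3.45) at 5, from 42 against 9 regions. The cause was not tested. It was 0.66 without regions that had a peak of the other list within 1 kb, 0.41 with under 50% covered by the other list, 0.67 from 500 bp on, 0.37 at least 10 Mb from both chromosome ends and 0.91 less than 5 Mb from an end, where 5397 gained stood against 2870 lost. The number of members, 51371, became 4408 and 42 when a −log10 q of 2 or 5 was required and 27352 from 500 bp on. It was 75938 with under 50% covered by control peaks and 51069 without those at RefSeq starts, which keeps the 2618 members of chromosome 8, where RefSeq starts were not used here.

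Among regions reaching a −log10 q of 2 the share within 5 kb of a control peak was 74.6%, the share under a DMSO E2F1 peak 2.04% and the mean GC content 47.3%. At 5 these were 23.8%, 16.7% and 56.7%, and the share in genes was 38.1%. With a TSS limit of 5 kb the share in genes was 51.7%, that within 5 kb of a control peak 64.8% and GC 45.7%. With protein-coding TSSs only, the share in genes was 55.3%, under DMSO peaks 1.69% and GC 46.1%. Without a peak of the other list within 1 kb, 55.8% lay within 5 kb of a control peak and 1.78% under DMSO peaks. With under 50% covered these were 77.0% near control peaks and a GC of 45.7%. From 500 bp on they were 68.8% near control peaks, 1.81% under DMSO peaks and a GC of 43.8%. The other 15 values stayed within their intervals or, for counts, within 1.5 times.

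No paired analysis was possible because each group has 1 library. No library can be left out for the same reason, so every gained region rests on a single pair of libraries, and its absence from the control list can be a peak just under the threshold there. Depth, fragmentation and infection cannot be told apart from the knockdown. Members with few fragments are not shown to differ between the conditions one by one.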
